A study of Mus musculus with 84 samples.

Results

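Chemokines are small secreted or membrane-tethered proteins that steer leukocytes, and chemokine receptors are the surface proteins that read them. The genes described here were taken from the count table by symbol: the Ccl, Cxcl, Ccr and Cxcr genes followed by a digit, Cx3cl1, Xcl1, Xcr1 and the numbered Ackr genes. A symbol was kept when it reached at least 1 CPM (a gene's reads per 1000000 reads counted in its library) in at least 3 of 84 libraries. Of 49671 genes in the table, 62 symbols matched and 42 passed, of which 27 encode ligands, 11 conventional receptors and 4 atypical receptors. The members nearest above the limit were Cxcl5, Xcr1 and Cxcl11, for which the library ranked 3 held 1.115, 1.877 and 1.999 CPM. The nearest below it were Ccr9 and Cxcr2 at 0.852 CPM each, then Xcl1 at 0.781, Ccl19-ps3 at 0.653 and Ccr6 at 0.639. The other 15 symbols that did not pass were Ccl1, Ccl19, Ccl19-ps1, Ccl20, Ccl21a, Ccl21b, Ccl26, Ccl27b, Ccr1l1, Ccr4, Ccr8, Cxcl15, Cxcl17, Cxcl3 and Cxcr1. Ccl19, Ccl21a, Ccl21b and Ccl27b have near-identical copies in the mouse genome, between which reads can be split or lost, so their absence from the members is uncertain.

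The 84 RNA sequencing libraries come from 12 mice, each of which gave hypothalamus, hippocampus, epididymal fat, liver, aorta, skeletal muscle and heart. The mice fall into 4 groups of 3: wild-type (WT) mice on normal diet (ND), WT mice on high fat diet (HFD), ob/ob mice on ND and ob/ob mice on HFD. The ob/ob mouse makes no working leptin, the hormone by which fat tissue reports energy stores to the brain, and becomes obese on ordinary chow. Tissues were taken after 20 weeks, which the labels do not state to be an age or a time on diet. Sex and background strain are not stated in the sources used here, but epididymal fat, which every mouse gave, is a depot of males.

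Within the family, inflammatory CC ligands such as Ccl2, Ccl3, Ccl4 and Ccl5 are made on demand by stressed tissue cells and macrophages and draw in monocytes and T cells through receptors such as Ccr1 and Ccr2. Homeostatic ligands such as Cxcl12 are made continuously by stromal cells and hold leukocytes and progenitors in place through Cxcr4. Atypical receptors do not couple to G proteins and instead take up and remove ligands. In obese fat and fatty liver, monocyte recruitment through this system is a well-known part of tissue inflammation.

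24 of the 42 members are described in 6 runs of neighbouring genes, joined where the gap was at most 500 kb. On chromosome 11, Ccl2, Ccl7, Ccl11, Ccl12 and Ccl8 span 82035571 to 82116799, and Ccl5, Ccl9, Ccl6, Ccl3 and Ccl4 span 83525778 to 83664683, in the GRCm38 build of the count table. On chromosome 5, Cxcl5, Cxcl1 and Cxcl2 span 90759360 to 90905938, and Cxcl9, Cxcl10 and Cxcl11 span 92321347 to 92365485. Ccl22, Cx3cl1 and Ccl17 lie on chromosome 8 from 94745590 to 94812036. The receptor genes Cxcr6, Xcr1, Ccr1, Ccr3 and Ccr2 lie on chromosome 9 from 123806475 to 124113557.

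The promoters of 5 members on which the results turn are shown because neighbouring genes of one run moved together (Ccl3 and Ccl9 in fat and muscle, Cxcl9 and Cxcl10 in liver) or one gene of a run moved without its neighbour (Ccl17 in brain). Each sequence is the 250 bases before the start site in RefSeq on GRCm38.p6, 5′ to 3′ on the gene's own strand, and capitals mark the NF-kB consensus (the binding motif of the inflammatory factor NF-kB), searched on both strands. Ccl3 is at chr11:83649379-83649628 (minus strand), Ccl9 at chr11:83578637-83578886 (minus), Ccl17 at chr8:94810203-94810452 (plus), Cxcl9 at chr5:92328080-92328329 (minus) and Cxcl10 at chr5:92348890-92349139 (minus).
Ccl3: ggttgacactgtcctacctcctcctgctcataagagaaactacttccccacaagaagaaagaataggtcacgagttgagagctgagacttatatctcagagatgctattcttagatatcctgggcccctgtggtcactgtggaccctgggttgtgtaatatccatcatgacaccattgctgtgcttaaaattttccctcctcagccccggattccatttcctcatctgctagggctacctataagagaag
Ccl9: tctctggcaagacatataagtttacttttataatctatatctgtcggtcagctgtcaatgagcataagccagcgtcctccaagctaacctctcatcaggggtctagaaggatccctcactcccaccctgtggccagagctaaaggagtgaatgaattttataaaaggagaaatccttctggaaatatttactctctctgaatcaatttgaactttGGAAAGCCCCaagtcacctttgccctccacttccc
Ccl17: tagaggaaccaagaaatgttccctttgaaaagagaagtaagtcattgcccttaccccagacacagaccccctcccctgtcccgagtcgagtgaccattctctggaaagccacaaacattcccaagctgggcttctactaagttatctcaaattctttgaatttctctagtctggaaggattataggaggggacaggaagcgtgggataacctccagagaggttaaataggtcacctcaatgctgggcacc
Cxcl9: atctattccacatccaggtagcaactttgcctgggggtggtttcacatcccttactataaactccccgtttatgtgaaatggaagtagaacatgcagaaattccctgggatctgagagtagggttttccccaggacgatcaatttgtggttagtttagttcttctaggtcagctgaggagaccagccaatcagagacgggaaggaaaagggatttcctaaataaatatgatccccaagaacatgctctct
Cxcl10: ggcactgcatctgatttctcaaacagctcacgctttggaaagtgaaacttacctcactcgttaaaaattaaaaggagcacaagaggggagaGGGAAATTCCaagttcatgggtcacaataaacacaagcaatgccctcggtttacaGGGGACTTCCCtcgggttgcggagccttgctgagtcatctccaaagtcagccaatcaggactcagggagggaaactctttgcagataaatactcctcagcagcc

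Positions in these promoters are counted back from the start site, with -1 the base before it. Ccl9 has an NF-kB consensus at -35 to -26. Cxcl10 has the NF-kB consensus at -159 to -150 and a pair of overlapping matches that together span -104 to -94. The windows of Ccl3, Ccl17 and Cxcl9 hold no match. Of 32851 RefSeq windows of the same length, 7.25% held the NF-kB consensus. Of the 29 members with a window, 7 held it (Ackr2, Ccl9, Ccr1, Ccr3, Cxcl1, Cxcl2 and Cxcl10).

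Library totals ran from 10499528 to 17040790 counted reads, so a member well under 1 CPM rests on few reads. All 84 libraries were closest to another library of their own labelled tissue. The defining markers of each labelled tissue were present there: the summed level of 7 hepatocyte genes was 117000 to 125800 CPM in lean WT liver, of 6 cardiomyocyte genes 22940 to 25720 CPM in lean WT heart, of 8 adipocyte genes 38030 to 49910 CPM in lean WT fat and of 6 neuronal genes 7430 to 7758 CPM in lean WT hippocampus. In lean WT aorta the 8 adipocyte genes summed to 19760 to 28860 CPM, against 526.9 to 1339 CPM for 6 smooth muscle genes, so the aorta libraries hold much RNA of adipocyte genes. In the fat libraries the hepatocyte sum was 1681 to 3369 CPM in WT mice on ND and at most 240.9 CPM in the other groups. In bulk tissue, fewer cells of a type and less RNA per cell cannot be told apart.

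In lean WT mice on ND, 29 of the 42 members had their highest level per kilobase of exon (FPKM) in fat. For 13 of them no fat library overlapped a library of the next tissue. These counts were not made over all genes, so whether members differ from other genes in this was not tested. Aorta and hippocampus were highest for 4 members each, hypothalamus for 2, and heart, liver and skeletal muscle for 1 each. Ccl6, a macrophage-derived CC ligand, led in fat at 206.1 ± 33.3 FPKM (SD, n = 3), followed by the eotaxin Ccl11 at 80.7 ± 22.4 and the Ccr1 ligand Ccl9 at 71.8 ± 18.2. Ccl6 also led in aorta at 83.8 ± 88.8 FPKM, where its libraries ran from 27.4 to 186.1, so its order against Ackr3 (41.5 ± 8.43) and Ccl11 (25.9 ± 5.96) does not hold beyond its spread. In heart, the Cxcl12 scavenger Ackr3 (23.7 ± 1.36 FPKM), Ccl6 (19.3 ± 3.74) and Cxcl12 (19.1 ± 0.295) were the 3 highest, and the order of the last pair lies within their spread.

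Liver was led by Cxcl12 at 30.2 ± 1.76 FPKM, the stromal ligand of Cxcr4, ahead of Ccl9 at 14.1 ± 2.09. Skeletal muscle was led by Ccl11 at 59.9 ± 9.55 FPKM and Cxcl14, a broadly made ligand of epithelia and muscle, at 46.8 ± 7.74. In the brain, Cx3cl1, the tethered ligand through which neurons signal to microglia, stood at 138.1 ± 0.351 FPKM in hippocampus and 82.7 ± 5.09 in hypothalamus. Cxcl14 followed at 38.7 ± 2.09 and 28.5 ± 6.39 FPKM. Ackr1, an atypical receptor of venules and red cells, came next at 15.8 ± 3.06 and 15.7 ± 0.630 FPKM. Its exons share 361 of 1405 bases on the same strand with Cadm3, a neuronal gene at 331.3 to 484.2 CPM in hippocampus and 371.6 to 431.3 CPM in hypothalamus, so the level of Ackr1 in brain is uncertain.

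**Figure D1:**
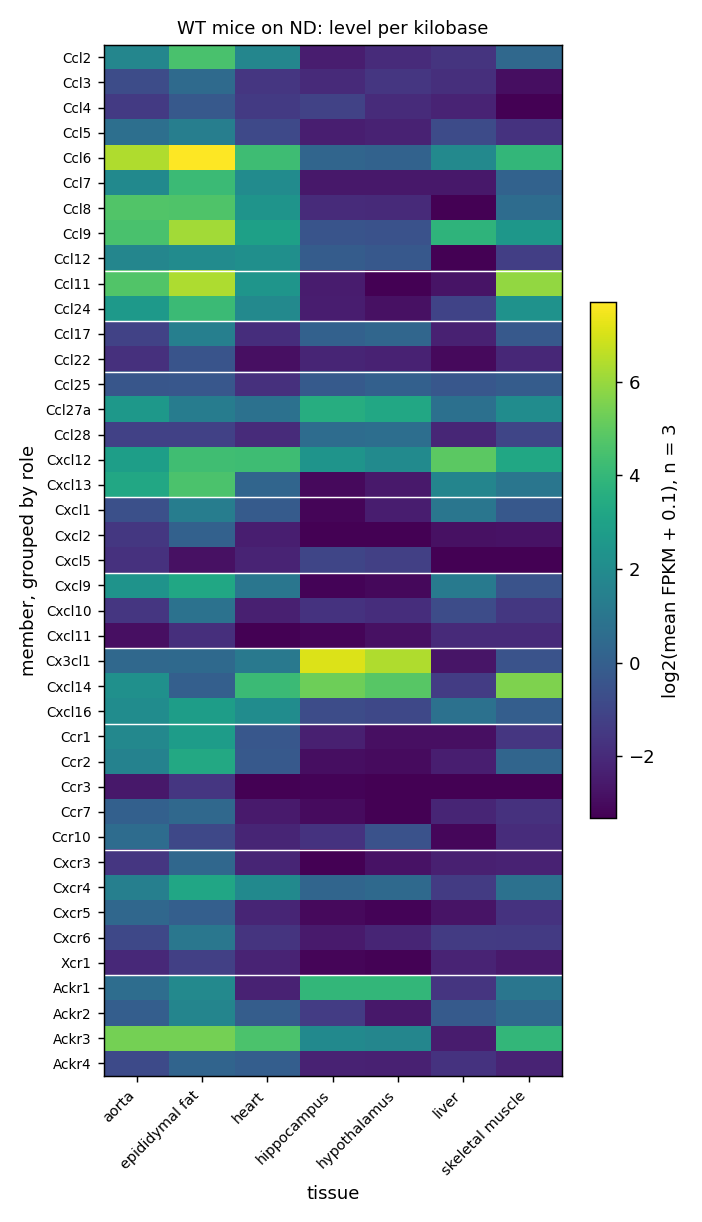
Mean level per kilobase (log2 scale, small constant added) of 41 members in the 7 tissues of WT mice on normal diet (n = 3 per tissue), grouped by role. Fat is the highest tissue for 29 members, a count that was not made over all genes. Cx3cl1 and Cxcl14 lead in both brain regions.

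Changes were tested in each tissue with edgeR's quasi-likelihood test on the counts of its 12 libraries, with Benjamini-Hochberg adjustment over all genes tested there. A gene is called here when its adjusted p was under 0.05, and values are log2 fold changes ± standard error. Levels given per library are CPM after TMM scaling within the tissue, which evens out libraries dominated by a few genes. A low-count filter left 38 members for testing in fat, 38 in skeletal muscle, 36 in aorta, 27 in liver, 24 in heart, 17 in hippocampus and 15 in hypothalamus. In ob/ob against WT mice on ND, members were called in every tissue, from 19 of 38 in fat to 1 of 17 in hippocampus. Of all genes tested, 48.2% were called in fat and 3.48% in hippocampus. HFD against ND in WT mice gave calls of members in fat (21 of 38), liver (16 of 27) and aorta (2 of 36). There 58.9%, 21.8% and 4.21% of all genes were called. In fat the members were called at about the share of all genes in both comparisons. These comparisons share the WT mice on ND, so a deviation of those 3 mice enters both.

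**Figure D2:**
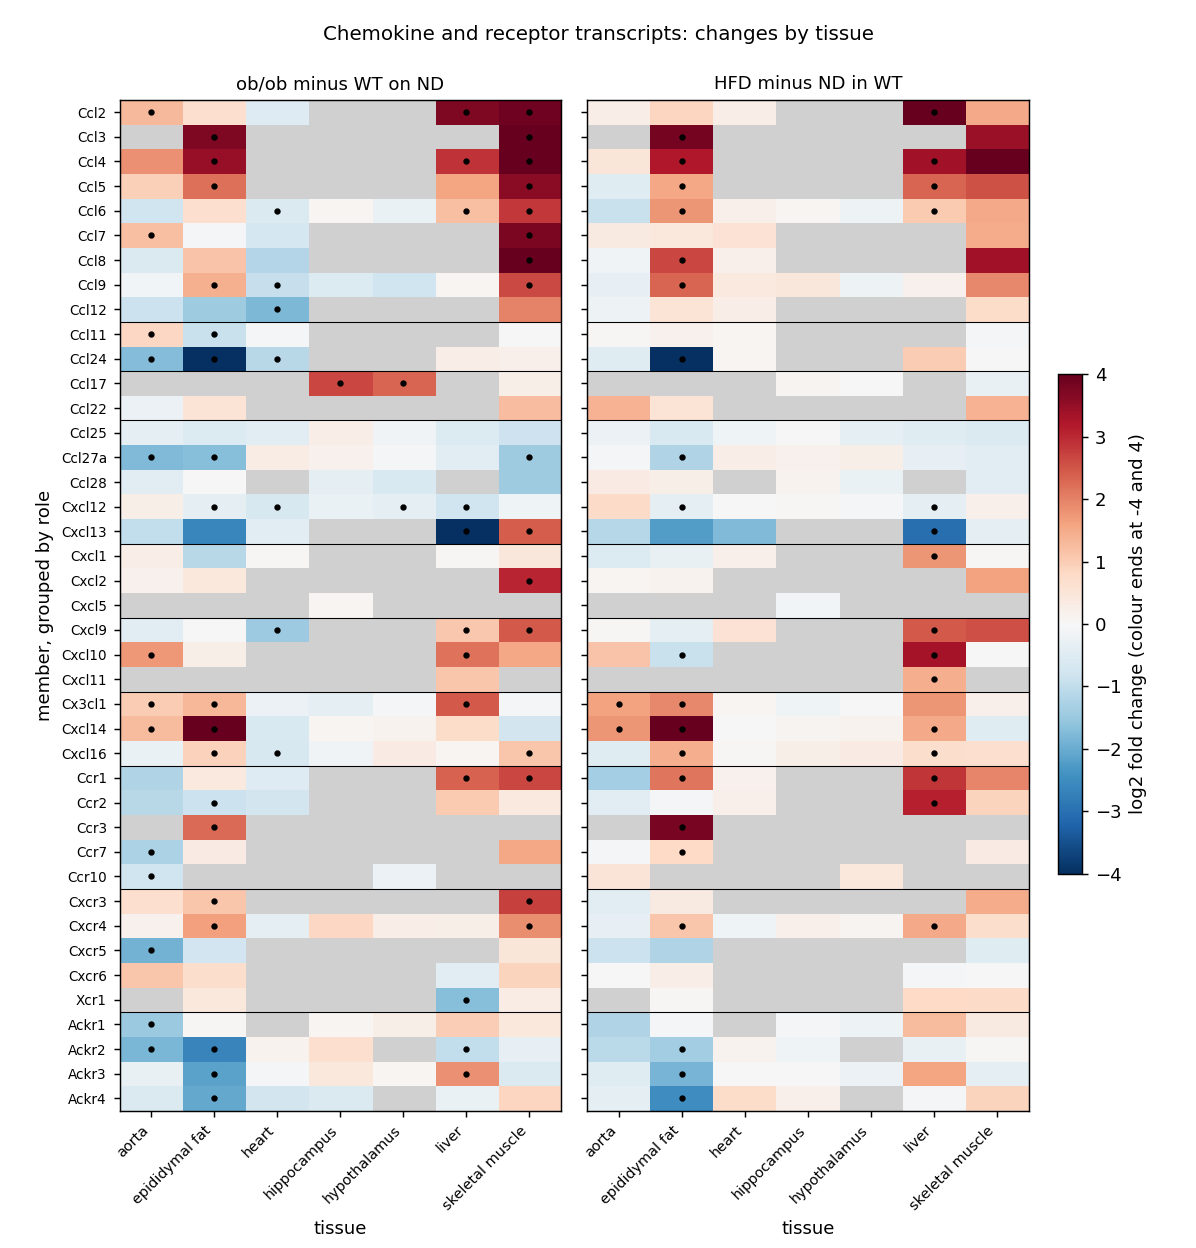
Log2 fold changes of 41 members in 7 tissues, for ob/ob minus WT mice on ND and for HFD minus ND in WT mice, by role. Colour gives the fold change, a black dot an adjusted p under 0.05 (edgeR) and grey a member not tested. Dots in the diet panel lie in fat, liver and aorta, and the dots for heart in the genotype panel are all for lower values.

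In epididymal fat, the CC ligands Ccl3, Ccl4, Ccl5 and Ccl9 and the receptors Ccr3 and Cxcr4 rose, and the eotaxin Ccl24 and 3 scavenging receptors fell, both with the ob/ob genotype on ND and with HFD in WT mice. In ob/ob against WT mice on ND, 11 of 38 tested members were higher and 8 lower, where 48.2% of all tested genes were called, 25.2% higher and 23% lower. On HFD against ND in WT mice, 14 were higher and 7 lower, where 58.9% of all genes were called, 28.6% higher and 30.3% lower. Taken in either direction, the calls of members were near the share of all genes in both comparisons. The median of the tested members was 0.36 for genotype and 0.31 for diet, beside -0.01 and -0.04 over all genes. Ccl17, Ccr10, Cxcl11 and Cxcl5 were not tested in fat. Ccl4 passed the low-count filter only through groups other than lean WT. Ccr3 would not have passed it on lean WT alone, and Ccl24 passed it mainly through lean WT. This favours their directions of change in advance.

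Ccl24 (ENSMUSG00000004814, chromosome 5, 135569937 to 135573049), an eosinophil attractant made by tissue macrophages, was at 25.4, 26.95 and 18.4 CPM in the fat of WT mice on ND. It was at 0.460, 1.002 and 0.647 CPM in WT mice on HFD, 0.384, 1.11 and 0.300 CPM in ob/ob mice on ND, and 0.659, 0.237 and 0.639 CPM in ob/ob mice on HFD. Every library outside the WT ND group was far below it, with no overlap. WT on HFD, ob/ob on ND and ob/ob on HFD held 29, 25 and 20 reads in all. Ccl24 therefore passed the low-count filter mainly through lean WT, which favours a fall in advance. The change was -5.26 ± 0.44 for genotype on ND (adjusted p 6.09e-06) and -5.04 ± 0.43 for diet in WT (adjusted p 4.59e-06). On HFD, ob/ob and WT fat differed by -0.45 ± 0.53 (adjusted p 0.578). Ccl11, the eotaxin of stromal cells, fell by 0.90 in ob/ob mice on ND, a call lost (adjusted p 0.0642 to 0.136) without any of WT ND mice 1 or 2 or ob/ob ND mice 1, 2 or 3.

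Ccl3 (ENSMUSG00000000982), a macrophage ligand of Ccr1, was at 0.719, 1.22 and 1.10 CPM in WT fat on ND. It reached 17.5, 16.6 and 9.21 CPM in WT mice on HFD, 16.1, 12.98 and 12.2 CPM in ob/ob mice on ND, and 14.1, 20.1 and 17.8 CPM in ob/ob mice on HFD. The 3 groups with obesity or HFD overlapped one another and did not overlap lean WT. Ccl3 rose by 3.75 ± 0.30 with genotype (adjusted p 5.3e-06) and 3.82 ± 0.30 with diet (adjusted p 2.88e-06). Ccl4, its neighbour on chromosome 11 and also a macrophage ligand, was at 0.240, 0.651 and 0.586 CPM in lean WT, 5.82, 4.01 and 4.17 CPM in WT on HFD, and 5.23, 6.56 and 4.95 CPM in ob/ob on ND. Its rises were 3.48 ± 0.33 and 3.22 ± 0.33 (adjusted p 1.59e-05 and 1.69e-05). Ccl4 had 19 reads over the lean WT libraries and passed the low-count filter only through other groups, which favours a rise in advance. Ccl5, a ligand made by T cells and macrophages, rose by 2.19 ± 0.31 and 1.53 ± 0.31, without overlap of the groups.

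Ccl9, a Ccr1 ligand of myeloid cells, was at 195.8, 298.2 and 176.1 CPM in lean WT fat. It was at 1448, 1182 and 752.3 CPM in WT mice on HFD and 757.8, 493.9 and 552.4 CPM in ob/ob mice on ND, without overlap with lean WT. It rose by 1.43 ± 0.27 with genotype and 2.33 ± 0.28 with diet. Ccl6 rose by 1.75 ± 0.38 with diet, while its genotype difference on ND was 0.69 ± 0.37 (adjusted p 0.144). Ccl2, the main Ccr2 ligand, passed in neither comparison. Its lean WT libraries were at 10.1, 60.6 and 10.3 CPM, and the second of them was above every ob/ob library. Its differences were 0.66 ± 0.62 (adjusted p 0.401) and 0.86 ± 0.61 (adjusted p 0.251). Ccl8, a Ccr2 and Ccr8 ligand, rose by 2.68 ± 0.84 with diet, but its libraries overlapped and the call was lost without WT ND mouse 1 (adjusted p 0.0578) or 2 (0.0512) or WT HFD mouse 2 (0.1). Of the 9 inflammatory CC ligands, 4 rose with genotype (median 1.14) and 6 with diet (median 1.75), and none fell. Ccl4, in both counts, passed the low-count filter only through groups other than lean WT. Over all genes 25.2% were higher with genotype and 28.6% with diet.

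Among CXC and tethered ligands in fat, Cxcl14 was at 1.198, 2.61 and 1.25 CPM in lean WT, 63.98, 26.4 and 19.9 CPM in WT on HFD, 40.4, 22.03 and 29.8 CPM in ob/ob on ND, and 21.6, 32.7 and 30.9 CPM in ob/ob on HFD. Lean WT stood apart from every other library. Cxcl14 rose by 4.19 ± 0.51 with genotype and 4.45 ± 0.51 with diet (adjusted p 7.93e-05 and 3.55e-05). Cx3cl1 and Cxcl16, both made as membrane-tethered proteins, rose with diet by 1.94 ± 0.45 and 1.45 ± 0.33. The interferon-induced Cxcr3 ligand Cxcl9 differed by -0.00 ± 0.35 with genotype (adjusted p 0.999), and neither CXCR3 ligand tested passed with genotype. Cxcl11 was not tested, with 26 reads over the 3 lean WT libraries and 1 over the 3 WT libraries on HFD.

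Receptors in fat moved unequally. Ccr3, the eotaxin receptor, was at 0.559, 0.896 and 0.879 CPM in lean WT, 15.6, 8.88 and 8.20 in WT on HFD, 3.998, 3.94 and 3.53 in ob/ob on ND and 2.80, 3.32 and 5.04 in ob/ob on HFD. WT mice on HFD were above, and lean WT below, every other library. Ccr3 had 30 reads over the lean WT libraries, which alone would not have passed the low-count filter. It rose by 2.28 ± 0.34 and 3.79 ± 0.34, while its ligand Ccl24 fell in both comparisons. Its difference on HFD was -1.54 ± 0.29 (adjusted p 0.00986), lost without ob/ob HFD mouse 1 (adjusted p 0.0536).

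Ccr2, the monocyte receptor of Ccl2, did not follow Ccr3. It was at 64.8, 68.1 and 69.1 CPM in lean WT and 68.6, 66.7 and 54.6 CPM in WT on HFD, a difference of -0.09 ± 0.17 (adjusted p 0.672). It was at 41.98, 42.9 and 26.3 CPM in ob/ob on ND and 27.3, 36.4 and 31.2 CPM in ob/ob on HFD. Every ob/ob library was below every WT library, and Ccr2 fell by 0.86 ± 0.17 on ND (adjusted p 0.00195) and fell by 0.9985 ± 0.174 on HFD (adjusted p 0.00769). Cxcr4, the Cxcl12 receptor, rose by 1.64 ± 0.23 with genotype and 1.11 ± 0.23 with diet. Cxcl12 itself was at 182.7, 168.3 and 144.9 CPM in lean WT and 116.6, 147 and 114.2 CPM in ob/ob on ND, which overlap, and fell by 0.39. That call was lost without WT ND mouse 1 (adjusted p 0.122) or 2 (0.0788) or ob/ob ND mouse 1 (0.113) or 3 (0.117).

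Of the 4 atypical receptors, 3 fell in fat with genotype (median -2.09) and the same number with diet (median -1.63). Over all genes 23% were lower with genotype and 30.3% with diet. Ackr3 (ENSMUSG00000044337, chromosome 1, 90203980 to 90216751), which scavenges Cxcl12, was at 141.9, 119.3 and 157.5 CPM in lean WT. It was at 39.3, 36.5 and 38.3 CPM in WT on HFD, 25.8, 34.1 and 35.7 CPM in ob/ob on ND, and 24.9, 29.5 and 32.8 CPM in ob/ob on HFD, so no library outside lean WT came near it. Ackr3 fell by 2.13 ± 0.15 with genotype (adjusted p 1.96e-06) and 1.88 ± 0.14 with diet (adjusted p 2.37e-06). Ackr2, a scavenger of inflammatory CC ligands in lymphatic vessels, was at 10.9, 9.44 and 9.81 CPM in lean WT, 2.30, 4.44 and 4.75 in WT on HFD and 0.923, 2.62 and 1.28 in ob/ob on ND. It fell by 2.63 ± 0.42 with genotype and 1.39 ± 0.40 with diet. Ackr4, a scavenger of Ccl19, Ccl21 and Ccl25, fell by 2.06 ± 0.49 and 2.50 ± 0.51. Its exons overlap those of Acad11 over 479 of 5280 bases.

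Marker genes of cell types moved with these changes in fat. The 12 macrophage genes summed to 1952 to 2100 CPM in lean WT, 8471 to 16760 in WT on HFD, 5404 to 9513 in ob/ob on ND and 6851 to 10430 in ob/ob on HFD. The 7 eosinophil and mast cell genes summed to 33.1 to 103.4, 457.9 to 658.4, 125.9 to 318.4 and 316.7 to 379.7 CPM in the same order. The 5 lymphatic endothelial genes, where Ackr2 and Ackr4 are known to be made, summed to 84.2 to 123.8 CPM in lean WT and at most 16.9 CPM in every other group. The 8 adipocyte genes summed to 38030 to 49910 CPM in lean WT, 4252 to 13520 in WT on HFD and 15240 to 22710 in ob/ob on ND. No gene of these lists was at 0 in all libraries, and their part in the results was not tested.

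**Figure D3:**
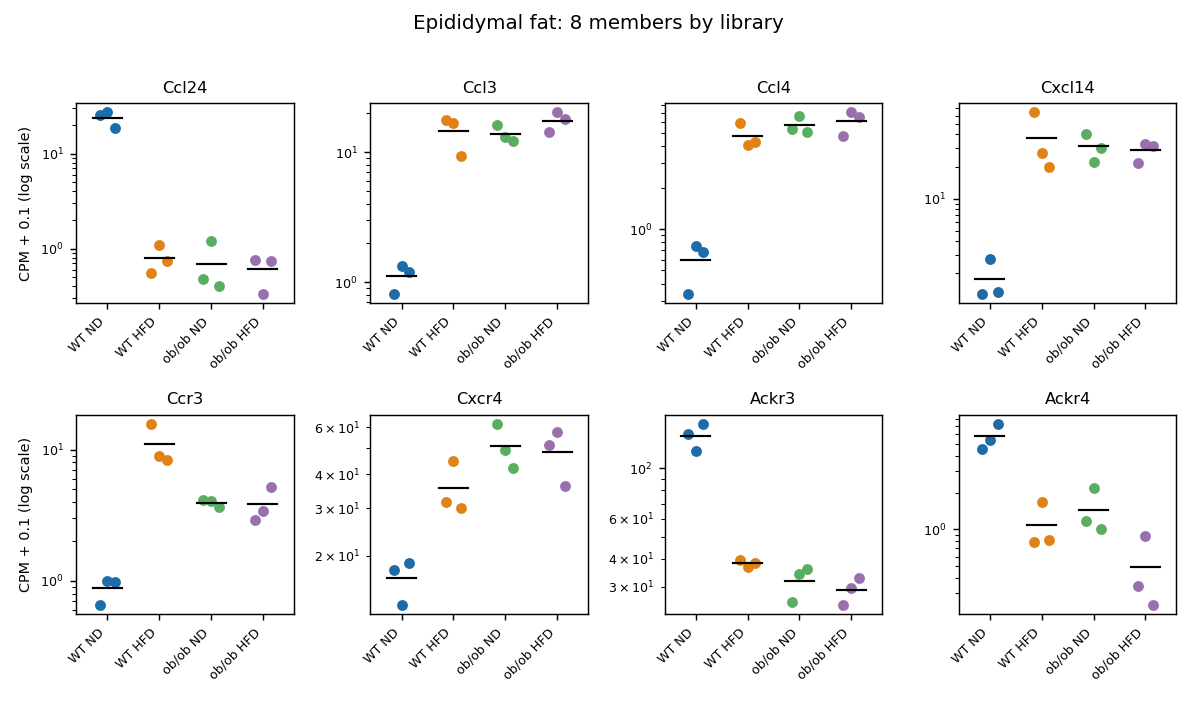
Levels in epididymal fat (CPM, log axis, a small constant added) of Ccl24, Ccl3, Ccl4, Cxcl14, Ccr3, Cxcr4, Ackr3 and Ackr4 in each mouse of the 4 groups, with bars at the mean of 3. Lean WT mice stand apart from the others in every panel, and Ccr3 is highest in WT mice on HFD.

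On HFD, 6 members were lower and 0 higher in ob/ob than WT fat, where 7.5% and 10.1% of genes were called. At an unadjusted p under 0.05, edgeR gave 1 higher and DESeq2 called 0. Beside Ccr2 and Ccr3, the lower members included Ccl6 (-1.27 ± 0.37), Ccl9 (-1.03 ± 0.27) and Ackr2 (-1.53 ± 0.43). The Ccl6 call was lost without WT ND mouse 1, WT HFD mouse 1 or 2, ob/ob ND mouse 2 or ob/ob HFD mouse 1 or 3 (adjusted p 0.0532 to 0.146). The Ccl9 call was lost without WT HFD mouse 1 or 2 or ob/ob HFD mouse 1 or 3 (adjusted p 0.0813 to 0.116), and the Ackr2 call without WT HFD mouse 2 or ob/ob HFD mouse 1, 2 or 3 (adjusted p 0.0601 to 0.101). The diet change differed between the genotypes for 15 of 38 tested members in fat, a share near the 40.1% of all genes. Of these members, 2 had a positive and 13 a negative difference, where 19.4% and 20.7% of all genes were called. In ob/ob fat the diet changed 0 members by edgeR, 2 at an unadjusted p under 0.05 and 0 by DESeq2.

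In liver, the interferon-induced ligands Cxcl9 and Cxcl10 and the monocyte ligand Ccl2 rose, and the homeostatic ligands Cxcl12 and Cxcl13 fell, both with genotype on ND and with diet in WT mice. The genotype call of Cxcl9 and the diet calls of Cxcl12 and Cxcl13 were lost in some alternative fits, given below. With genotype on ND, 9 of 27 tested members were higher and 4 lower, where 19.3% and 17.1% of all genes were called. With diet in WT, 14 were higher and 2 lower, where 12% and 9.87% of genes were called. The median of the tested members was 0.75 and 1.45, beside 0.02 over all genes in both comparisons.

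Cxcl10 (ENSMUSG00000034855), which carries 3 NF-kB matches in the window above, was at 1.38, 1.13 and 1.24 CPM in the liver of lean WT mice. It was at 9.53, 8.45 and 20.4 CPM in WT on HFD, 4.85, 5.69 and 6.35 CPM in ob/ob on ND and 4.70, 4.94 and 7.42 CPM in ob/ob on HFD. WT mice on HFD were above, and lean WT below, every other library. Cxcl10 rose by 3.33 ± 0.37 with diet (adjusted p 9.13e-05) and 2.16 ± 0.38 with genotype (adjusted p 0.000733). On HFD it was lower in ob/ob by -1.15 ± 0.29 (adjusted p 0.0154), a call lost without WT HFD mouse 3 (adjusted p 0.0503) or ob/ob HFD mouse 1 (0.0508) or 2 (0.0524). Its exons overlap Art3 over 133 of 2252 bases.

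Cxcl9, its neighbour and a second Cxcr3 ligand, was at 8.81, 9.02 and 3.71 CPM in lean WT liver and 29.97, 26.01 and 62.7 CPM in WT on HFD. The groups did not overlap, and Cxcl9 rose by 2.44 ± 0.38 with diet (adjusted p 0.000804). In ob/ob mice it was at 17.3, 9.97 and 18.5 CPM on ND and 12.1, 17.7 and 12.1 CPM on HFD, all above lean WT and below WT on HFD. The Cxcl9 call with genotype on ND was lost under DESeq2 (1.08, adjusted p 0.0522) and with the replicate number as a block (1.04, adjusted p 0.0685). It was also lost in fits that left out 1 mouse, given with the heart results. On HFD Cxcl9 was lower in ob/ob by -1.49 ± 0.35 (adjusted p 0.00996). All 3 CXCR3 ligands rose with diet (median 2.44), where 12% of all genes were higher. The third was Cxcl11, by 1.45 ± 0.45 (adjusted p 0.0338). It had 21 reads over the lean WT libraries and passed the low-count filter only through other groups, which favours a rise in advance. The Cxcl11 call was lost without any of WT ND mice 1, 2 or 3 or WT HFD mice 1 or 3 (adjusted p 0.0792 to 0.112), and its exons overlap Gm2673 over 1582 of 3794 bases.

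Ccl2 was nearly undetected in lean WT liver, at 0, 0.434 and 0.380 CPM (9 reads in all), and passed the low-count filter only through other groups. It was at 3.59, 2.92 and 8.12 CPM in WT on HFD, 2.57, 3.44 and 4.99 CPM in ob/ob on ND and 2.46, 5.42 and 3.97 CPM in ob/ob on HFD, with no overlap with lean WT. It rose by 4.11 ± 0.65 with diet (adjusted p 0.000967) and 3.73 ± 0.67 with genotype (adjusted p 0.000798). Its receptor Ccr2 was at 0.259, 0.954 and 0.855 CPM in lean WT and 4.69, 4.78 and 8.60 CPM in WT on HFD, and rose by 3.10 ± 0.53 with diet (adjusted p 0.0015). In ob/ob liver on ND, Ccr2 was at 1.91, 1.26 and 1.07 CPM, above each lean WT library, but was not called. All 3 CC receptors tested rose with diet (median 2.85), and 2 of them with genotype, where 12% and 19.3% of all genes were higher. One of the 3, Ccr1, had 4 reads over the lean WT libraries and passed the low-count filter only through other groups. Ccr2 had 23 reads there and would not have passed the filter on the lean WT libraries alone. This favours a rise in advance.

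Other liver ligands had fewer reads or smaller changes. Ccl4 had 3 reads over the 3 lean WT libraries, 37 over WT on HFD and 30 over ob/ob on ND. It passed the low-count filter only through groups other than lean WT. The ratios of levels were 11.1 (95% counting interval 3.51 to 56.3) and 8.03 (2.50 to 41.1), and both comparisons were called. Ccl6, made by liver macrophages and other myeloid cells, was at 8.90, 8.76 and 3.61 CPM in lean WT, 16.3, 14.5 and 13.6 in WT on HFD, 18.7, 12.2 and 18.3 in ob/ob on ND and 30.1, 32.5 and 24.7 in ob/ob on HFD. It was the 1 member that was higher in ob/ob than WT liver on HFD (0.97 ± 0.23, adjusted p 0.0109), where 18.5% of genes were called, and Cxcl9 and Cxcl10 were the 2 lower ones. Cxcl1, a neutrophil attractant, rose by 1.78 ± 0.32 with diet.

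Cxcl12, which led the lean liver, was at 299.6, 255.3 and 269.3 CPM in lean WT. It was at 203.3, 204.6 and 220.1 CPM in WT on HFD, 157, 160.6 and 158.9 CPM in ob/ob on ND and 208.6, 159.3 and 155.2 CPM in ob/ob on HFD. Every other library was below lean WT, and Cxcl12 fell by 0.79 ± 0.11 with genotype (adjusted p 0.000121). The fall with diet, -0.39 ± 0.11 (adjusted p 0.0219), was lost without WT ND mouse 1 (adjusted p 0.0933) or 3 (0.0507) or WT HFD mouse 1 (0.0627) or 2 (0.0657). Cxcl13, the B cell attractant, was at 1.30, 9.72 and 0.760 CPM in lean WT and 0.147, 0.211 and 0.143 CPM in ob/ob on ND, and fell by 4.48 ± 1.02 with genotype (adjusted p 0.00411). Its fall with diet, -3.02 ± 0.88, was lost without WT ND mouse 2 (adjusted p 0.282), WT HFD mouse 1 (0.0942) or 3 (0.0732).

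The 12 macrophage genes in liver summed to 93.1 to 290.1 CPM in lean WT, 222.9 to 265.6 in WT on HFD, 180 to 191.9 in ob/ob on ND and 223.6 to 386.9 in ob/ob on HFD. Those ranges overlap. The 7 hepatocyte genes summed to 117000 to 125800 CPM in lean WT and 87680 to 98520 in WT on HFD. The part of these differences in the results was not tested. The diet change differed between the genotypes for 5 members in liver, all with a negative difference, where 6.17% of genes were called. Within ob/ob liver the diet changed 0 members by edgeR (0.913% of genes called), 10 at an unadjusted p under 0.05 and 3 by DESeq2.

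**Figure D4:**
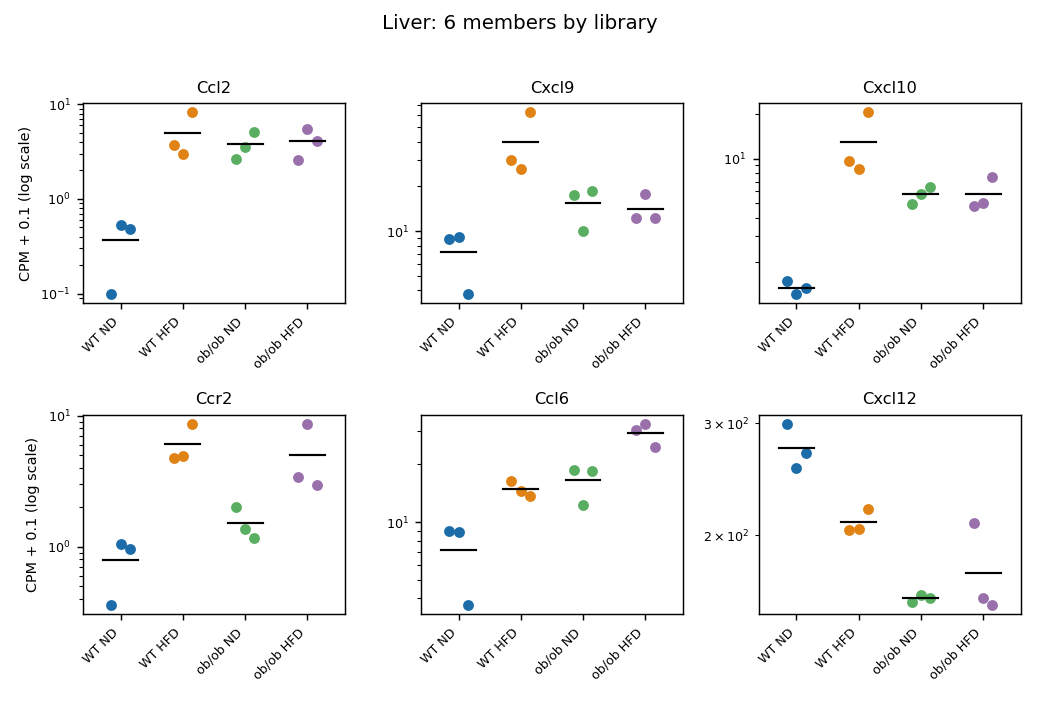
Levels in liver (CPM, log axis, a small constant added) of Ccl2, Cxcl9, Cxcl10, Ccr2, Ccl6 and Cxcl12 in each mouse of the 4 groups, with bars at the mean of 3. Lean WT mice are lowest for the first 5 genes and highest for Cxcl12.

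In skeletal muscle, 8 of the 9 inflammatory CC ligands rose in ob/ob mice on ND, with a median of 3.77, or 3.59 with Ccl4 held at its lower bound. Ccl3, Ccl4, Ccl5 and Ccl12 had 1, 0, 9 and 7 reads over the lean WT libraries. They passed the low-count filter only through other groups, which favours a rise in advance, and they are among the 9 and in the median. Over all roles, 16 of 38 tested members were higher and 1 lower, where 26.6% and 18.3% of genes were called. The median was 1.17 for tested members and 0.00 for all genes. All 5 genes of the chromosome 11 run from Ccl5 to Ccl4 were called. None of these calls was made on HFD against ND in WT mice, where edgeR called 0 members and 0% of genes.

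Ccl8 was at 0.414, 1.33 and 0.865 CPM in the muscle of lean WT mice. It was at 13.8, 8.39 and 4.47 CPM in WT on HFD, 39.5, 17.1 and 76.5 CPM in ob/ob on ND and 11.8, 44.6 and 64.5 CPM in ob/ob on HFD. Lean WT lay below every other library. Ccl8 rose by 5.67 ± 0.84 with genotype (adjusted p 0.00326). Its diet difference in WT was 3.35 ± 0.82 (adjusted p 0.101). Ccl7, a Ccr2 ligand encoded beside Ccl2, was at 0.827, 1.24 and 0.952 CPM in lean WT and 13.7, 6.19 and 21.3 CPM in ob/ob on ND, and rose by 3.77 ± 0.69 (adjusted p 0.00379). Ccl2 itself was at 0.662, 3.10 and 1.39 CPM against 18.5, 12.6 and 45.02 CPM, without overlap, and rose by 3.89 ± 0.83.

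Ccl6 was the most abundant of these ligands in muscle, at 24.4, 41.7 and 36.9 CPM in lean WT. It reached 126.5, 105.7 and 59.3 CPM in WT on HFD, 220.4, 192.8 and 323.7 in ob/ob on ND and 59.4, 260.4 and 212.3 in ob/ob on HFD, all above lean WT. It rose by 2.84 ± 0.51 with genotype (adjusted p 0.00357). Ccl5 rose by 3.595 ± 0.643 (adjusted p 0.00354), from 0.414, 0.177 and 0.173 CPM in lean WT to 4.60, 1.84 and 3.12 CPM. Ccl9 rose by 2.63 ± 0.53, from 14.4, 27.4 and 21.2 to 121.4, 129 and 139.3 CPM. Ccl3 had 1 read over the lean WT libraries and 68 over ob/ob on ND, a ratio of levels of 42.5 (95% counting interval 7.38 to 1704). Ccl4 had 0 reads and 42 reads, at least 8.76-fold higher against a floor of 3 reads over the lean group.

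Receptors rose in the same muscles, 4 of 9 conventional ones tested, where 26.6% of all genes were higher. Cxcr4 was at 3.31, 3.46 and 4.33 CPM in lean WT, 6.56, 7.20 and 4.16 in WT on HFD, 15.8, 11.03 and 13.7 in ob/ob on ND and 5.94, 16.9 and 13.7 in ob/ob on HFD. It rose by 1.87 ± 0.36 with genotype (adjusted p 0.00415), with no overlap between lean WT and ob/ob on ND. The Cxcr3 ligand Cxcl9 rose by 2.46 ± 0.63 (adjusted p 0.0116). The lean leaders did not rise: Ccl11 was at 70.5, 83.7 and 87.5 CPM in lean WT and 85.1, 81.7 and 77.5 CPM in ob/ob on ND. Cxcl14 was at 123.1, 85.5 and 111.4 CPM against 43.2, 57.2 and 89.99 CPM, which overlap, and was not called.

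On HFD against ND in WT muscle, 10 members had an unadjusted p under 0.05 and DESeq2 called 5, while edgeR called 0. The tested members had a median of 0.68, beside 0.00 over all genes. Several inflammatory members missed the threshold, with Cxcl9 at 2.59 (adjusted p 0.101), Ccl5 at 2.54 (0.104), Ccl9 at 1.92 (0.112) and Ccl6 at 1.502 (0.153). Without ob/ob HFD mouse 1, which belongs to neither group but enters the shared spread, edgeR called 9 members. The share of all genes called in that fit is not given here. Between the genotypes on HFD, edgeR called 0 members in muscle (0.0194% of genes), with 7 at an unadjusted p under 0.05 and 1 by DESeq2.

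Beside these values, the 12 macrophage genes in muscle summed to 250.3 to 453.3 CPM in lean WT, 538.9 to 1112 in WT on HFD, 1465 to 2149 in ob/ob on ND and 623 to 2391 in ob/ob on HFD. The 8 adipocyte genes summed to 815.8 to 3319, 6703 to 11230, 13420 to 18450 and 4356 to 25360 CPM in the same order, with the 4356 CPM in ob/ob HFD mouse 1. The 7 muscle fibre genes summed to 94100 to 216000, 81460 to 102400, 22590 to 54470 and 4306 to 108000 CPM. The macrophage and adipocyte sums were higher, and the fibre sum lower, in ob/ob mice on ND than in lean WT without overlap, and their part in the chemokine results was not tested.

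In aorta, the epithelial-type ligand Ccl27a and its receptor Ccr10 were lower in ob/ob mice, and Cxcl14 and Cx3cl1 rose with genotype and with diet. With genotype on ND, 6 of 36 tested members were higher and 7 lower, where 31.7% of genes were called, 15.9% in each direction. With diet in WT, 2 members were called, both higher, where 4.21% of genes were called, 2.13% higher and 2.07% lower. The median was -0.30 and -0.22 for tested members, beside -0.03 and -0.01 over all genes. Ccl17, Ccl3, Ccr3, Cxcl11, Cxcl5 and Xcr1 were not tested.

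Ccl27a (chromosome 4, 41769467 to 41774247) was at 11, 12.2 and 15.7 CPM in the aorta of lean WT mice and 12.1, 13.1 and 11.4 CPM in WT on HFD. It was at 4.14, 4.15 and 3.26 CPM in ob/ob on ND and 3.64, 4.81 and 4.20 CPM in ob/ob on HFD. Every ob/ob library was below every WT library. Ccl27a fell by 1.75 ± 0.18 on ND (adjusted p 4.69e-05) and 1.53 ± 0.18 on HFD (adjusted p 0.000434). Its exons overlap those of Il11ra1 over 8 of 2377 bases, and it has a near-identical copy, Ccl27b. Ccr10 was lower in ob/ob mice on HFD by -1.48 ± 0.28 (adjusted p 0.00534), at 1.21, 1.44 and 0.955 CPM against 3.55, 2.65 and 3.82 CPM in WT. On ND it differed by -0.79 ± 0.28 (adjusted p 0.0469), and 10 of the 12 fits that left out 1 mouse lost that call (adjusted p 0.0504 to 0.132), all but those without WT ND mouse 2 or ob/ob HFD mouse 3.

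Cxcl14 was at 9.51, 6.33 and 8.16 CPM in lean WT aorta. It was at 27.6, 20.95 and 34.02 CPM in WT on HFD, 24.7, 14.2 and 18.6 CPM in ob/ob on ND and 28.1, 20.3 and 37.6 CPM in ob/ob on HFD. Lean WT lay below all others, and Cxcl14 rose by 1.78 ± 0.27 with diet (adjusted p 0.00363) and 1.26 ± 0.27 with genotype (adjusted p 0.00465). Cx3cl1 was at 5.95, 3.34 and 4.51 CPM in lean WT, 13.3, 13.6 and 15.1 in WT on HFD and 7.92, 11.7 and 8.57 in ob/ob on ND. It rose by 1.61 ± 0.27 with diet (adjusted p 0.00613) and by 1.03 ± 0.27 with genotype (adjusted p 0.0122), the latter lost without ob/ob ND mouse 2 (adjusted p 0.0532).

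Other aortic ligands moved with genotype on ND. Cxcl10 rose by 1.74 ± 0.38 (adjusted p 0.00539), from 0.595, 0.417 and 0.501 CPM to 1.82, 1.52 and 1.75 CPM. The eotaxins split: Ccl11 rose by 0.83 ± 0.20 (adjusted p 0.00805), from 25.2, 31.5 and 23.5 CPM to 55.95, 36.1 and 50.9 CPM, while Ccl24 fell by 1.73 ± 0.43 (adjusted p 0.01), from 5.05, 12.1 and 4.87 CPM to 2.11, 2.08 and 2.45 CPM. None of these 3 overlapped between the groups. On HFD the aorta had 1 member higher and 2 lower in ob/ob, where 16.2% of genes were called, 8.34% higher and 7.84% lower. The higher one was Cxcl1 (1.69 ± 0.40, adjusted p 0.0141), lost without WT HFD mouse 2 (adjusted p 0.0543) or 3 (0.0621) or ob/ob HFD mouse 3 (0.0733).

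Libraries of the aorta were uneven in other cell types. WT ND mouse 2 had 296.7 CPM of Ccl6 against 49.5 and 67.2 in the other two, and its 12 macrophage genes summed to 1835 CPM against 424.9 and 709.4 CPM. The 9 B cell genes summed to 30.7 to 52.2 CPM in lean WT and 7.42 to 14.5 CPM in ob/ob on ND. Lower calls in ob/ob aorta for Cxcr5, the B cell receptor of Cxcl13 (-1.89 ± 0.56), and Ccr7 (-1.28 ± 0.38) stand beside that difference, whose part was not tested. The Cxcr5 call was lost without WT ND mouse 3 (adjusted p 0.129) or ob/ob ND mouse 2 (0.0714) or 3 (0.0795). The Ccr7 call was lost without WT ND mouse 2 (adjusted p 0.0636) or 3 (0.0616) or ob/ob ND mouse 2 (0.0816) or 3 (0.054).

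In heart, the called members all fell in ob/ob mice on ND. 8 of 24 tested members were lower and 0 higher, where 6.48% and 6.26% of genes were called. No member was higher at an unadjusted p under 0.05 or by DESeq2. The median was -0.59 for tested members and -0.01 for all genes. On HFD, 6 members were called in ob/ob hearts, each of them lower, where 17.2% of genes were called, 8.36% lower and 8.82% higher. With diet in WT hearts edgeR called 0 members (0.256% of genes), 4 had an unadjusted p under 0.05 and DESeq2 called 0.

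Cxcl9 was at 5.49, 5.39 and 5.59 CPM in lean WT hearts and 8.71, 9.70 and 5.92 CPM in WT on HFD. It was at 2.82, 1.12 and 2.03 CPM in ob/ob on ND and 2.48, 2.41 and 2.16 CPM in ob/ob on HFD. Every ob/ob heart was below every WT heart. Cxcl9 fell by 1.45 ± 0.26 on ND (adjusted p 0.00174) and 1.79 ± 0.23 on HFD (adjusted p 0.000134), while in liver and skeletal muscle on ND it was called higher in ob/ob mice. The liver call on ND (1.08 ± 0.39, adjusted p 0.0444) was lost without WT ND mouse 1 (adjusted p 0.0619), 2 (0.0529) or 3 (0.155), ob/ob ND mouse 1 (0.112) or 3 (0.135), or ob/ob HFD mouse 3 (0.0514).

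Ccl9 was at 23.2, 25.3 and 18.7 CPM in lean WT hearts, 29.4, 29.9 and 28.02 in WT on HFD, 10.3, 10.5 and 14.2 in ob/ob on ND and 17.6, 22.5 and 13.3 in ob/ob on HFD. It fell by 0.93 ± 0.17 on ND (adjusted p 0.00219) and 0.71 ± 0.16 on HFD (adjusted p 0.00633), with no overlap within a diet. Cxcl12 was at 147.2, 152.2 and 153.2 CPM in lean WT and 87.96, 74.6 and 124.4 CPM in ob/ob on ND. It fell by 0.66 ± 0.16 (adjusted p 0.0132), lost without ob/ob ND mouse 1 (adjusted p 0.0571) or 2 (0.0638). On HFD its fall was 0.66 ± 0.16 (adjusted p 0.0105), lost without ob/ob HFD mouse 2 (adjusted p 0.0561). Its scavenger Ackr3 was at 75.9, 71.9 and 81.8 CPM in lean WT and 73.98, 82.3 and 62.1 CPM in ob/ob on ND and was not called.

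Ccl24 was at 5.15, 3.59 and 4.67 CPM in lean WT hearts and 1.94, 2.03 and 2.20 CPM in ob/ob on ND. It fell by 1.12 ± 0.28 (adjusted p 0.0157), lost without WT ND mouse 1 (adjusted p 0.0621) or ob/ob ND mouse 1 (0.0516), and by 1.47 ± 0.28 on HFD (adjusted p 0.0024). Ccl6 fell by 0.59 ± 0.17 on ND (adjusted p 0.0273), lost without WT ND mouse 1 (adjusted p 0.114) or 2 (0.0759) or ob/ob ND mouse 1 (0.0596) or 2 (0.112). The 12 macrophage genes in heart summed to 498 to 650.1 CPM in lean WT, 512.4 to 616.3 in WT on HFD, 333.8 to 458.7 in ob/ob on ND and 339.1 to 485.7 in ob/ob on HFD. The 6 cardiomyocyte genes summed to 28820 to 29040 CPM in ob/ob on ND, above the 22940 to 25720 CPM of lean WT. The part of either in the chemokine results was not tested. Without ob/ob ND mouse 1, edgeR called 3 members in heart on ND.

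In the brain, Ccl17, a dendritic cell ligand of Ccr4, was the 1 member that edgeR called in hippocampus and rose in both regions. In hippocampus on ND, 1 of 17 tested members was called, where 3.48% of genes were called, 1.63% higher and 1.85% lower. In hypothalamus 1 of 15 was higher and 1 lower, where 2.32% and 2.98% of genes were called. The median of tested members was 0.07 in hippocampus and -0.05 in hypothalamus, beside 0.02 and -0.01 over all genes. Diet in WT gave 0 calls in either region (0% of genes), with 0 members in hippocampus and 2 in hypothalamus at an unadjusted p under 0.05, and DESeq2 called 0.

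Ccl17 (ENSMUSG00000031780, chromosome 8, 94810453 to 94812036) was at 0.388, 0.491 and 0.634 CPM in the hippocampus of lean WT mice and 0.285, 0.670 and 0.686 CPM in WT on HFD. It was at 3.20, 3.66 and 2.93 CPM in ob/ob on ND and 2.85, 2.03 and 2.29 CPM in ob/ob on HFD. Every ob/ob library was above every WT library. Ccl17 had 21 reads over the WT libraries on ND and 22 on HFD, and passed the low-count filter only through ob/ob libraries. This favours a rise in advance. It rose by 2.69 ± 0.31 on ND (adjusted p 0.00744). On HFD it was higher in ob/ob by 2.12 ± 0.31 (adjusted p 0.0161), lost without WT HFD mouse 2 (adjusted p 0.0722) or ob/ob HFD mouse 1 (0.0849) or 2 (0.0557). It was the 1 member called there on HFD, where 1.56% of genes were called, 0.648% higher and 0.911% lower.

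In hypothalamus Ccl17 was at 0.376, 0.867 and 0.543 CPM in lean WT, 0.460, 0.657 and 0.685 CPM in WT on HFD, 3.06, 2.95 and 3.03 CPM in ob/ob on ND, and 3.61, 2.24 and 1.55 CPM in ob/ob on HFD. Again no ob/ob library overlapped a WT library. Ccl17 had 23 reads over the WT libraries on ND and 25 on HFD. The WT libraries alone would not have passed the low-count filter, which favours a rise in advance here too. It rose by 2.33 ± 0.35 on ND (adjusted p 0.00396). On HFD the difference was 2.01 ± 0.36 (adjusted p 0.0139), lost without WT HFD mouse 1 (adjusted p 0.0624), 2 (0.0743) or 3 (0.0502) or ob/ob HFD mouse 1 (0.0788). The 2 regions come from the same mice. DESeq2 gave Ccl17 no adjusted p in hippocampus on either diet or in hypothalamus on ND, and called it in hypothalamus on HFD. In hippocampus on ND the member that DESeq2 called was Ackr3 (0.40, adjusted p 0.0394), for which edgeR gave 0.41 (adjusted p 0.0557).

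The neighbouring gene Cx3cl1, within the same run on chromosome 8, did not pass in either region. It was at 545.3, 551 and 547.7 CPM in lean WT hippocampus and 498.3, 385.2 and 383.9 CPM in ob/ob on ND, a difference of -0.38 ± 0.14 (adjusted p 0.161). In hypothalamus it was at 343.3, 315.8 and 324.9 CPM against 307.5, 315.8 and 331.3 CPM, a difference of -0.04 ± 0.07 (adjusted p 0.766). The 8 dendritic cell genes summed to 39.7 to 41.3 CPM in lean WT hippocampus and 37.2 to 41.9 CPM in ob/ob on ND, and to 38.9 to 42.9 and 36.9 to 39.5 CPM in hypothalamus. The 6 microglial genes summed to 197.5 to 225.5 and 173 to 192.4 CPM in hippocampus and to 150.1 to 182.8 and 147.7 to 157.6 CPM in hypothalamus. The part of these cells in the Ccl17 result was not tested.

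Hypothalamic Cxcl12 was at 35.6, 28.8 and 27.5 CPM in lean WT and 22.2, 22 and 25.5 CPM in ob/ob on ND. It fell by 0.40 ± 0.11 (adjusted p 0.0479), a call lost in 11 of the 12 fits that left out 1 mouse (adjusted p 0.0599 to 0.172), all but that without WT ND mouse 3. On HFD, 2 members were higher in ob/ob hypothalamus, where 2.13% of genes were called in either direction. Beside Ccl17 this was Ackr3, at 9.36, 8.83 and 9.58 CPM in WT and 14.4, 13.8 and 12.6 CPM in ob/ob (0.55 ± 0.11, adjusted p 0.02). The Ackr3 call was lost without WT HFD mouse 1 (adjusted p 0.0679), 2 (0.109) or 3 (0.0561) or ob/ob HFD mouse 1 (0.121) or 2 (0.072).

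**Figure D5:**
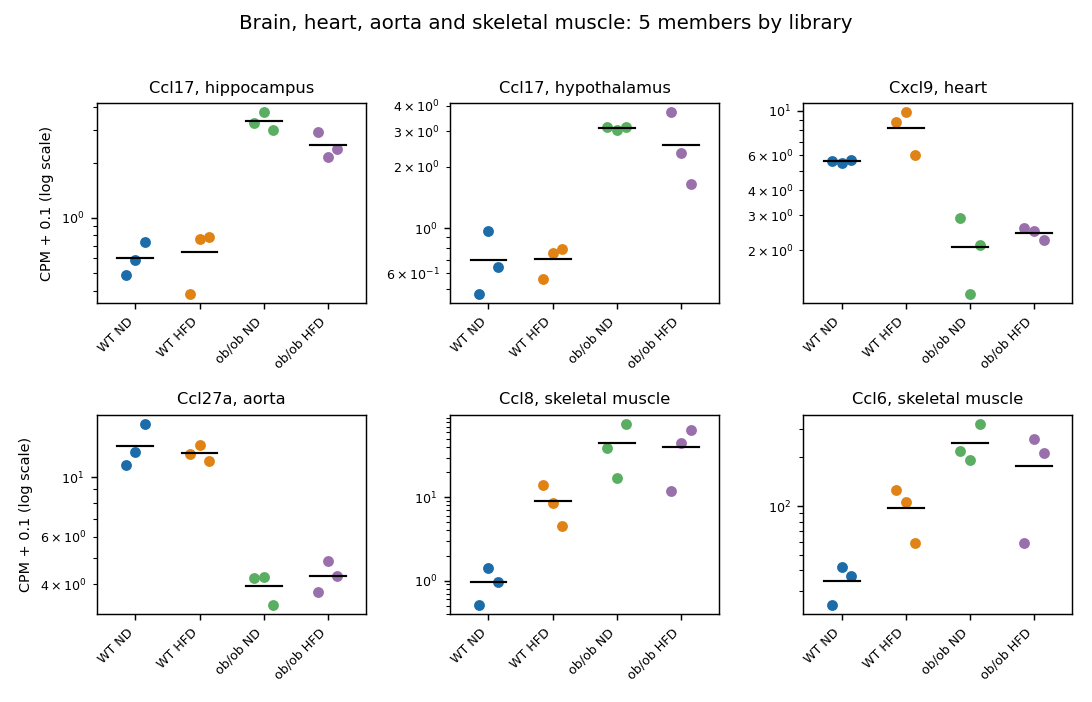
Levels (CPM, log axis, a small constant added) of Ccl17 in hippocampus and hypothalamus, Cxcl9 in heart, Ccl27a in aorta, and Ccl8 and Ccl6 in skeletal muscle in each mouse of the 4 groups, with bars at the mean of 3. The first 4 panels separate all ob/ob from all WT mice, and in muscle lean WT mice lie below the other groups.

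Across tissues in ob/ob against WT mice on ND, Cxcl12 was lower in 4 of the 7 tissues in which it was tested and higher in none. Ccl24 was lower in 3 of 5, Ackr2 in 3 of 6 and Ccl27a in 3 of 7. Ccl2 was higher in 3 of 5 tissues, Ccl4 in 3 of 4 and Cx3cl1 in 3 of 7. Ccl6, Ccl9, Cxcl9 and Cxcl16 were each higher in 2 tissues and lower in heart. These counts include calls that ended when 1 mouse was left out, among them those of Cxcl12 in fat, heart and hypothalamus. Over all genes the share called lower ran from 1.85% in hippocampus to 23% in fat. The share called higher ran from 1.63% in hippocampus to 26.6% in muscle. How many of all genes were called in as many tissues was not counted, so these members are not set apart by their counts. The tissues come from the same mice and are not independent of one another.

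Diet within ob/ob mice changed 0 members in any of the 7 tissues by edgeR, with 24 member and tissue pairs at an unadjusted p under 0.05 and 3 called by DESeq2. The share of all genes called was 0 in 5 tissues, 0.0219% in heart and 0.913% in liver. The diet change differed between genotypes in fat and liver as given above. In aorta (0.427% of genes), heart, both brain regions and muscle (0% each) edgeR called 0 members for that difference, with 3, 1, 1 in hypothalamus, 0 in hippocampus and 12 in muscle at an unadjusted p under 0.05. DESeq2 called 1 in aorta and 0 in the other 4.

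Genes that act downstream of chemokine receptors were also called in fat and muscle. Of 24 listed receptor-signalling genes, 22 were in the table. In fat, 16 of 21 tested were higher with genotype (median 1.15) and 18 with diet (median 1.98), and none was lower, where 25.2% and 28.6% of all genes were higher. Rgs1, a brake on receptor signalling in leukocytes, rose by 5.01 ± 0.24 and 5.79 ± 0.25. In muscle 16 of 21 were higher with genotype (median 1.66), where 26.6% of genes were, with Rgs1 at 5.46 ± 0.98. In liver 4 of 20 were higher with genotype, a share near the 19.3% of all genes, and 7 with diet, where 12% of genes were higher. In heart 1 was higher and 5 lower of 19 (median -0.34), where 6.26% and 6.48% of genes were, and in both brain regions none was called with either.

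Among 19 cytokines and NF-kB genes that induce chemokines, 2 were higher and 1 lower of 15 tested in fat with genotype, and 3 higher and 2 lower with diet. Over all genes 25.2% were higher and 23% lower with genotype, and 28.6% and 30.3% with diet, so these counts are not above the background. Tnf, the macrophage cytokine, rose in fat by 2.56 ± 0.40 and 2.76 ± 0.40. Nfkbia, the NF-kB inhibitor that NF-kB itself induces, was lower in ob/ob mice on ND in aorta (-1.30 ± 0.17) and liver (-0.95 ± 0.10). In liver with diet, 6 of 11 were higher and 1 lower, where 12% and 9.87% of genes were. With genotype on ND, 5 of 14 were higher in muscle, where 26.6% of genes were, and 4 of 11 were lower in heart, where 6.48% were. Of the 9 chemokines and receptors whose symbols fall outside the rule, 4 of 8 tested were higher in liver in both comparisons, where 19.3% (genotype) and 12% (diet) of genes were, among them Pf4, a platelet and macrophage CXC ligand (3.24 ± 0.58 in each). Cx3cr1, the receptor of Cx3cl1, rose by 3.02 ± 0.63 in liver with diet and was lower in ob/ob heart on ND (-1.14 ± 0.31).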

How the data were processed

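Total RNA of 7 tissues from 12 mice was sequenced as 84 libraries. The authors deposited raw read counts per gene. The authors used Trimmomatic 0.36 for trimming, HISAT2 2.0.5 for alignment to GRCm38 and featureCounts 1.5.0-p2 for counting, per the submitters' processing notes; per the file headers, paired fragments over exons were counted with no strand or multi-mapping option, so overlapping genes and near-identical copies are undercounted or mixed. Groups were taken from the labelled genotype and diet.

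Counts were analysed with edgeR 4.0.16 in R 4.3.3, in each tissue separately: genes passing filterByExpr (smallest count 10, smallest total 15), TMM scaling, 4 groups of 3 in 1 model, quasi-likelihood tests and Benjamini-Hochberg adjustment within tissue and comparison, called under 0.05. The procedure was tested on simulated data. Membership used CPM on plain library totals, levels per library CPM on TMM-scaled totals within the tissue, and FPKM plain totals and the exon length in the count table. Alternatives were DESeq2 1.42.0, its size factors, no low-count filter, the replicate number as a block, and leaving out each mouse. No pair of replicates agreed within sampling noise (lowest chi-square per degree of freedom 2.64 over 84 pairs). The labels do not say more of how mice were raised. Each p-value sets a difference against a spread between mice estimated over the 12 libraries of the tissue, with 3 mice per group. Counting intervals cover counting error only.

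The counts cover all members, of which 1 is not reported here by name. The members and gene lists were chosen with earlier results of these data known. Named genes were, in each tissue, the 5 called members with the smallest p in either main comparison, 3 in each other, the 3 highest per kilobase in lean WT mice, and known ligand or receptor partners. Promoters came from RefSeq, where 29 members matched, and were searched for the NF-kB consensus. Marker sums add the CPM of a fixed list.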

Additional observations from a re-analysis of the deposited data

Results flagged for a closer look

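The results below were picked out because the diet change (HFD minus ND) differed between ob/ob and WT mice by a test of that difference (edgeR's interaction term, adjusted p under 0.05). Values are the diet change in ob/ob minus that in WT, on the log2 scale, so a negative value means that the gene rose less, or fell more, in ob/ob mice. Each test uses the same 4 groups of 3 mice as the comparisons above.

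In epididymal fat 15 of 38 tested members differed, 14 of which are given here. That share is near the 40.1% of all genes tested there, so the count itself does not set the members apart. The scavenger Ackr3 (1.74) and the eotaxin Ccl24 (4.80) had a positive difference: both were already low in ob/ob mice on ND and fell with diet in WT mice. Among inflammatory ligands the difference was -3.48 for Ccl3, -3.11 for Ccl4, -2.02 for Ccl5, -1.96 for Ccl6, -3.33 for Ccl8 and -2.46 for Ccl9. Among other ligands it was -4.56 for Cxcl14, -1.81 for Cx3cl1 and -1.30 for Cxcl16. Among receptors it was -3.82 for Ccr3, -1.22 for Ccr7 and -1.19 for Cxcr4. Leaving out 1 mouse ended the call of Cx3cl1 in 9 of 12 fits and those of Ccl8, Cxcl16 and Ccr7 in 8 each.

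In liver 5 members differed, 4 of which are given here, where 6.17% of genes did. The difference was -4.001 for Ccl2, -3.17 for Ccl4, -3.32 for Cxcl10 and -2.56 for Cxcl9. The Ccl4 call (adjusted p 0.0492) was lost in 11 of 12 fits that left out 1 mouse.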

How the results depend on the processing

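Over all comparisons 153 combinations of member, tissue and comparison were called, and no direction reversed under any alternative run. DESeq2 kept 146 and ended 4 (3 had no adjusted p), its size factors kept 152, and dropping the low-count filter kept 145. Normalization moved no called value by more than 0.027. For HFD against ND in WT mice, without the low-count filter, called members were 5 in place of 2 in aorta, 1 in place of 0 in heart and 2 in place of 0 in muscle, where DESeq2 called 5. In ob/ob mice on ND the hypothalamus kept 1 of 2 under DESeq2, its size factors, no filter and the replicate block. For diet in ob/ob mice, DESeq2 called 3 (Cxcl1, Ccr2 and Ccl6 in liver) and no filter 10 (5 in heart and 5 in liver), in place of 0. The cause of these shifts was not tested.

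Leaving out 1 mouse, called members for genotype on ND ran from 6 (without ob/ob ND mouse 2) to 13 in aorta, 15 to 20 in fat, 3 (without ob/ob ND mouse 1) to 8 in heart, 1 to 1 in hippocampus, 1 to 2 in hypothalamus, 9 to 14 in liver and 13 to 19 in muscle. For diet in WT they ran from 2 to 3 in aorta, 17 to 21 in fat, 10 (without WT ND mouse 3) to 18 in liver and 0 to 9 (without ob/ob HFD mouse 1) in muscle, and stayed at 0 in heart and both brain regions. Over all tissues they ran from 13 (without WT HFD mouse 2) to 24 for genotype on HFD, where 21 were called, from 0 to 1 for diet in ob/ob (Ccl6 in liver, without WT ND mouse 3), and from 14 to 21 for the difference of diet changes, where 20 were called. Of the 153, 92 held in every such fit and 61 were lost in at least 1.

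The replicate numbers are shared between groups. In each tissue 2 to 7 of 18 same-numbered pairs of libraries had a correlation of deviations above 0.1. Differently numbered pairs were not compared, so this cannot tell whether the numbers pair the mice. With the replicate number as a block, 141 of the 153 calls were kept and 12 ended, among them Ccl17 in hippocampus on HFD (2.14, adjusted p 0.0598). Called members for genotype on ND were 12 in aorta, 18 in fat, 8 in heart, 1 in hippocampus, 1 in hypothalamus, 12 in liver and 16 in muscle. For diet in WT they were 2 in aorta, 20 in fat, 16 in liver and 0 elsewhere; for genotype on HFD 20, for diet in ob/ob 0 and for the difference 16. Membership changed to 47 with a limit of 0.5 CPM, 39 with 2 CPM and 42 with TMM-scaled CPM. Depth limits members under about 1 CPM, which rest on few reads.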

Other observations

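Neighbouring genes were not called as a block in every tissue. The 5 genes from Ccl5 to Ccl4 on chromosome 11 were all higher in the skeletal muscle of ob/ob mice on ND and in the fat of WT mice on HFD. Of all genes, 26.6% were higher in the first and 28.6% in the second. In that muscle Ccl3, Ccl4 and Ccl5 passed the low-count filter only through groups other than lean WT, as did Ccl4 in fat. In ob/ob fat on ND 4 of the 5 were higher, where 25.2% of all genes were, Ccl6 being the one that missed the threshold. Of the 5 genes from Ccl2 to Ccl8 on the same chromosome, 3 were higher in ob/ob muscle on ND and 3 in ob/ob aorta on ND. Of all genes 26.6% and 15.9% were higher there. In ob/ob fat on ND 0 of these were higher by edgeR and 1, Ccl11, was lower, where 25.2% and 23% of all genes were. The 3 genes from Cxcl9 to Cxcl11 on chromosome 5 were all higher in WT liver on HFD, where 12% of all genes were. Cxcl11 passed the low-count filter there only through groups other than lean WT. In the receptor run on chromosome 9, Ccr3 was higher and its neighbour Ccr2 lower in the fat of ob/ob mice on ND. The runs are described after the values were seen, and no test of their grouping was made.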
